A study of Mus musculus with 8 samples.

Results

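The genes of the microtubule motors were followed in nuclear RNA of mouse forebrain excitatory neurons after pilocarpine-induced seizure. They are the kinesin heavy chains (Kif and Kifc symbols), the kinesin light chains (Klc1 to Klc4), the kinesin-associated protein Kifap3, the heavy, intermediate and light chains of cytoplasmic dynein (Dync and Dynl symbols), and 6 subunits of its activator dynactin (Dctn symbols). Members were chosen by symbol, and by a minimum of 10 counts in 4 or more libraries of the exonic count table. The rule uses no difference between the groups. Of the 55471 genes in that table, 70 had such a symbol and 64 passed the minimum. The symbols under it were Kif12, Kif18b, Kif2b, Kif2c, Kif4 and Kif16bos, which is a noncoding antisense RNA and no motor. Kif28 and Dynlrb2 passed it narrowly, with a mean of 12.6 and 15.9 counts per library, and Kif4 failed it with at most 14 counts in a library. Kif1bp was caught by its symbol, although it encodes a protein that binds kinesins.

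Both groups were male C57BL/6J mice aged 6 to 8 weeks, and all carried the genotype CaMKIIalpha-Cre:SUN1-sfGFP. In this genotype, Cre recombinase under the promoter of the calcium/calmodulin kinase gene Camk2a switches on a GFP-tagged protein of the nuclear envelope, by which nuclei are pulled from a homogenate. The Pilo group (4 libraries) was given 1 mg/kg scopolamine methyl nitrate, then after 30 min 340 mg/kg pilocarpine, an agonist of muscarinic receptors, and 100 min for seizures to develop. Pilo mice with a Racine seizure score of 3 to 5 were retained, a selection that had no counterpart in Mock mice. The Mock group (4 libraries) was given scopolamine and then saline. All Pilo mice had both the drug and seizures, so drug and seizure cannot be told apart. The labels do not say whether each library is 1 mouse or a pool, and p-values measure the spread between these libraries, which may be partly technical.

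Kinesins and dynein walk along microtubules and burn ATP to carry vesicles, organelles and RNA. In axons most kinesins move cargo outward to the synapse, and cytoplasmic dynein with dynactin moves it back to the cell body. Other kinesins take apart microtubules, build cilia or work in the mitotic spindle, for which a mature neuron has little use.

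The exonic table held 29356788 to 36161448 counts per library. A second table held 27135364 to 33715773 exonic and 11928054 to 16703475 intronic counts. Levels are given as CPM, the count as a share of the library's total after TMM scaling, in parts of 1e6. The 64 genes summed to 7789, 8622, 8044 and 8232 CPM in Pilo libraries, against 7739, 7903, 7490 and 8003 CPM in Mock libraries, and these ranges overlapped. Markers of excitatory neurons summed to 2607 to 3161 CPM in Pilo libraries and 2318 to 2952 CPM in Mock libraries, with 4 of 8 higher and 1 lower. Markers of inhibitory neurons summed to 168 to 266 CPM in Pilo libraries and 134 to 170 CPM in Mock libraries (3 of 10 higher), and those of oligodendrocytes to 374 to 680 CPM in Pilo and 294 to 408 CPM in Mock libraries (2 of 9 higher). Beside these calls, 15.6% of all genes tested on exonic counts were higher and 16.2% lower. Pilo replicate 3 held the highest sums of inhibitory, astrocyte, oligodendrocyte, microglia, endothelial and ependymal markers. The part of these markers in the results was not tested. In bulk RNA, fewer nuclei of a type and less RNA per nucleus cannot be told apart.

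The motor genes moved in both directions. Of the 64 genes tested with edgeR's quasi-likelihood test on exonic counts, 11 were higher in Pilo libraries, with 15.6% of all 19176 genes tested higher. Another 15 were lower, with 16.2% of all genes lower. The shares of the motor genes were 17.2% and 23.4%. The lower genes include Dynlt1a, Dynlt1b and Dynlt1c, near-identical copies that do not count as separate calls, so the lower share is raised by 1 locus. The median log2 fold change of Pilo over Mock was -0.03 over the motor genes and 0.00 over all genes, and the median size of change was 0.24 and 0.26. The changes were mostly modest, between -1.12 for Dynlt1c and 0.69 for Kif26a. Kif28 lay at -1.35, but it met the count minimum through the Mock libraries alone and so had to be lower in Pilo libraries. It is counted among the 15 lower genes, and its fold change is only a description. Apart from it, Dynlt1c was the one motor gene past the test and beyond 2-fold, beside 4.94% of all genes tested. The split of reads between Dynlt1c and its copies is uncertain, and the copies summed had a log2 fold change of -0.57. In 24 of the 64 genes the CPM of the Pilo and Mock libraries did not overlap, beside 32% of all genes tested. Kif28 and the copies Dynlt1b and Dynlt1c are among these 24. With the replicate number as a block, 18 motor genes were higher and 16 lower, and none of the 26 calls was lost, while 23.8% of all genes were higher and 23.2% lower. The count of higher motor genes was 7 without Mock replicate 1 and 6 without Pilo replicate 2. Of all genes, 2653 of 19542 and 2644 of 19583 were higher in these runs, against 2994 of 19176 with every library.

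**Figure D1:**
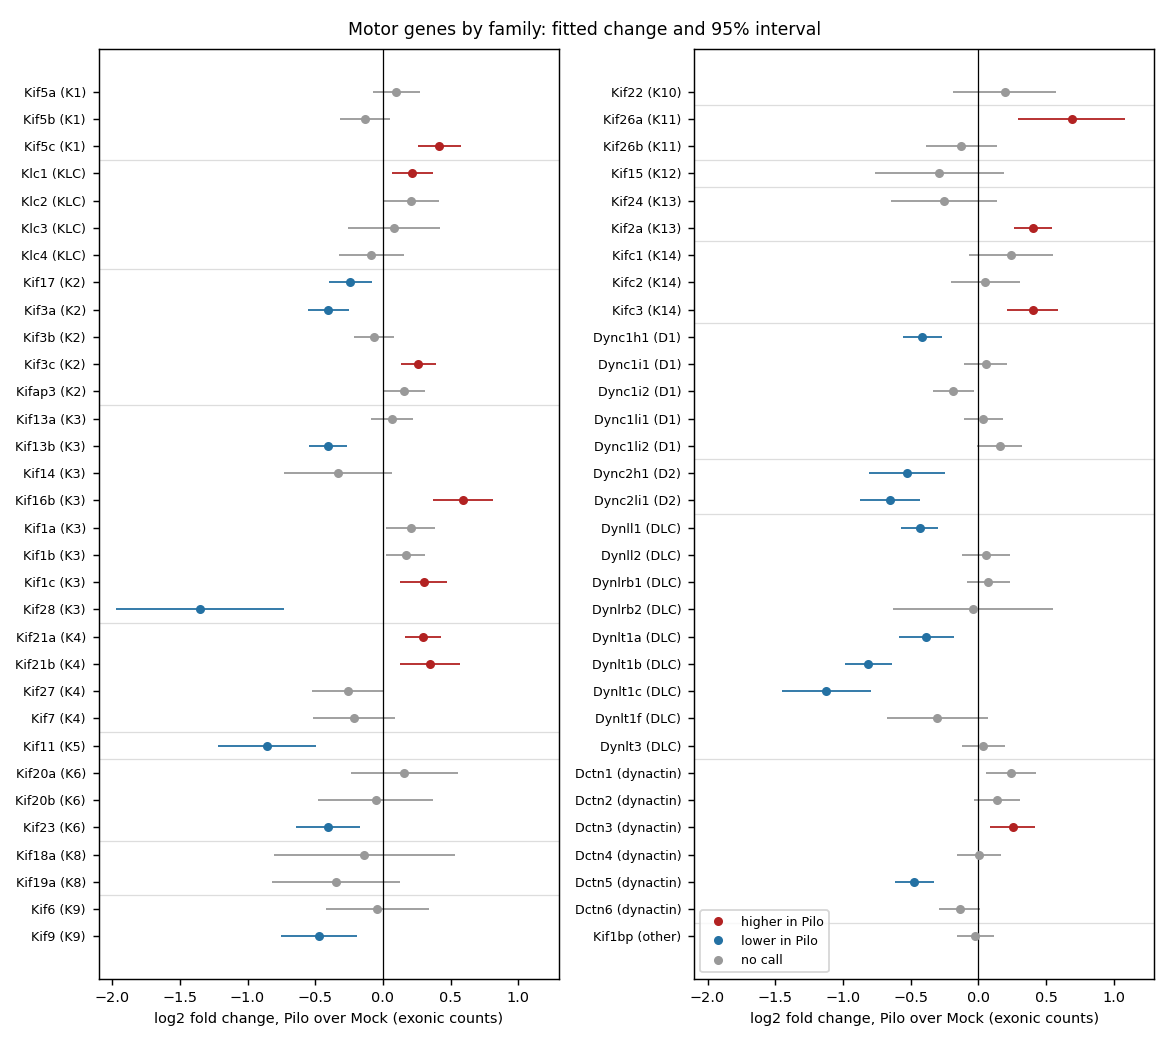
Log2 fold change of Pilo over Mock in exonic counts (x axis) for all 64 motor genes by family, with 95% intervals of the fit. K1 to K14 are the kinesin families, KLC kinesin light chains, D1 and D2 the larger subunits of dynein-1 and dynein-2, DLC dynein light chains. Coloured points passed the test. The dynein-2 genes and the Dynlt1 copies lie to the left of 0, with Dynlt1c at -1.12, and the kinesin-4 genes Kif21a and Kif21b to the right. The split of reads between the Dynlt1 copies is uncertain.

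**Figure D2:**
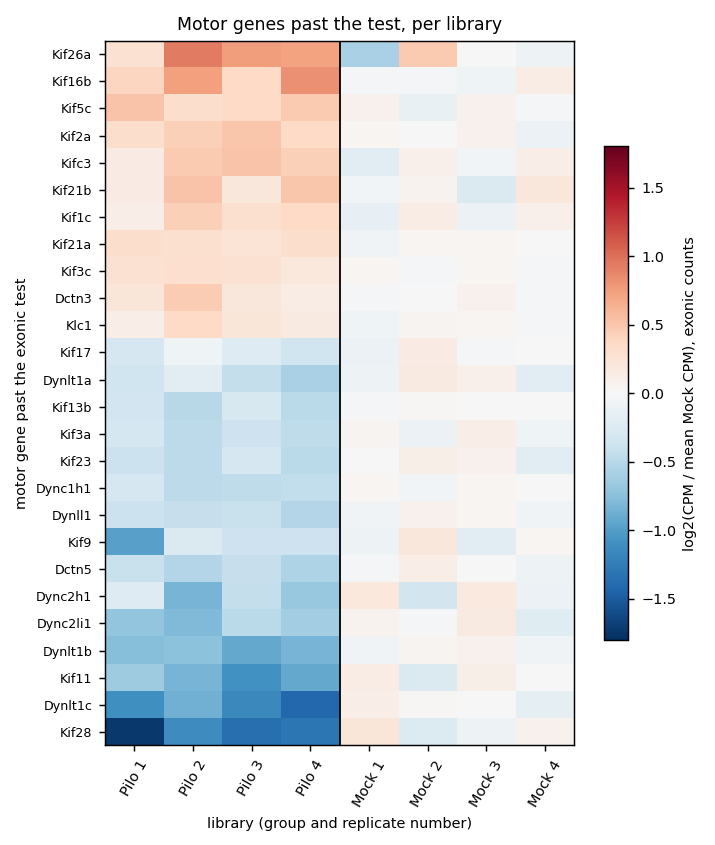
Exonic CPM of each library (columns) divided by the mean of the Mock libraries, on a log2 colour scale, for the 26 motor genes past the test (rows). Red is higher and blue lower. Kif28 and Dynlt1c are the deepest blue, and Kif26a is red in all Pilo libraries but also in 1 Mock library.

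The promoters of 4 genes past the test held the full cAMP response element TGACGTCA, the letters to which CREB, a factor activated by calcium and cAMP in neurons, is known to bind. They are shown since 3 of the 9 higher genes with a sequence held these letters, against 1 of 10 lower genes and 1 of 27 genes with no call (Kif18a). These counts are small, and a link between the letters and the changes was not tested. Only the call of Kif5c was kept with each library left out in turn, while those of Klc1, Dctn3 and Kif17 were each lost without some libraries. The windows run from 250 bases before to 50 after the start, were found for 46 of the 64 genes in a RefSeq table of GRCm38.p6, and were searched on both strands. The letters were in 10.9% of the motor genes with a window, 2.03% of all 27025 genes with one and 2.54% of the 17492 protein-coding ones. The windows are chr2:49619036-49619335 (plus strand) for Kif5c, chr12:111758618-111758917 (plus strand) for Klc1, chr4:41723114-41723413 (minus strand) for Dctn3 and chr4:138262001-138262300 (plus strand) for Kif17, which was lower. The element, in capitals, begins at -26, -33, -81 and -86 from the start in these genes.
Kif5c: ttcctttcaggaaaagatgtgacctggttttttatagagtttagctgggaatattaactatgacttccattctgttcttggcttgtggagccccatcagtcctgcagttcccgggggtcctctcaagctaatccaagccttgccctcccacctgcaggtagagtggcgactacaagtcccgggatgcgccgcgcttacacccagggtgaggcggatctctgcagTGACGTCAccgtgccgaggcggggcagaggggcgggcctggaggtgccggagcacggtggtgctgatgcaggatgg
Klc1: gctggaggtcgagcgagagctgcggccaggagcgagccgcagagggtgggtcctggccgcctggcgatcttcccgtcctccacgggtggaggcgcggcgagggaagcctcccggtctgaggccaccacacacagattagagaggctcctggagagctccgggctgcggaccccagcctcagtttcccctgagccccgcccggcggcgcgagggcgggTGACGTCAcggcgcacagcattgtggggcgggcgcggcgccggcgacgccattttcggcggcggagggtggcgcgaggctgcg
Dctn3: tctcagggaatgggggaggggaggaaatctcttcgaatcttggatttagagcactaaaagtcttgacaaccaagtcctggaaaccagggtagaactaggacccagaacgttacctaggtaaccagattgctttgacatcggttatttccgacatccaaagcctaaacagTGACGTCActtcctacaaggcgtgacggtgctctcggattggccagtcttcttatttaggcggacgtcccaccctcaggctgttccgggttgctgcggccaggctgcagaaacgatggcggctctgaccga
Kif17: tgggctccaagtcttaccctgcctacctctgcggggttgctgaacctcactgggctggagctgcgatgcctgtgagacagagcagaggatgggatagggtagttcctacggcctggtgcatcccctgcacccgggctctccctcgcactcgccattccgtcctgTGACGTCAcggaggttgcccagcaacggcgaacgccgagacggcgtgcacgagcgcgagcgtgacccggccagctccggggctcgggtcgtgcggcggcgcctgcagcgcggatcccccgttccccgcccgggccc
The AP-1 letters TGANTCA were in 0 of the 46 windows (8.97% of all genes), the E-box CACGTG in those of Kif1a and Klc4 (8.09% of all genes), and the NRF-1 motif in those of Dync1li1 and Kifap3 (1.07% of all genes), neither of which passed the test. These are matches of letters in a short window and say nothing of binding.

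Kinesin-1, the main carrier of mitochondria and axonal vesicles, pairs heavy chains with light chains that hold the cargo. Of its heavy chains, Kif5c, which is enriched in neurons, was higher in Pilo libraries, while Kif5a and Kif5b did not pass the test. Kif5c (ENSMUSG00000026764, chr2:49619298-49774778, plus strand, GRCm38) had 356, 311, 323 and 349 CPM in Pilo libraries, against 264, 229, 265 and 244 CPM in Mock libraries (log2 fold change 0.42, SE 0.08, adjusted p = 0.00151). All Pilo libraries lay above all Mock libraries. Kif5a, whose mutations cause hereditary spastic paraplegia in humans, had 330.0, 391, 439.7 and 369.9 CPM in Pilo libraries and 355, 361, 349 and 365 CPM in Mock libraries (log2 fold change 0.10, SE 0.09, adjusted p = 0.440). Its Mock libraries were tightly grouped within the spread of the Pilo libraries. Kif5b, the ubiquitous heavy chain, had 102, 87.3, 116 and 89.3 CPM in Pilo libraries and 106, 109, 116 and 102 CPM in Mock libraries (log2 fold change -0.13, SE 0.09, adjusted p = 0.323), and the groups overlapped. Of the light chains, Klc1 had 418, 492, 445 and 430.2 CPM in Pilo libraries and 365, 399, 392 and 379 CPM in Mock libraries (log2 fold change 0.22, SE 0.08, adjusted p = 0.0457). Its groups did not overlap, but the call was lost in turn without Mock replicates 1, 2 or 4 and Pilo replicates 2, 3 or 4 (adjusted p up to 0.124), with no low-count filter (0.0888), with a minimum count of 50 (0.0530) and in the exonic columns of the second table (0.0655). Klc2, the other light chain at a high level, had 227, 308, 240.3 and 272 CPM in Pilo libraries and 219, 237, 197 and 254 CPM in Mock libraries (log2 fold change 0.21, SE 0.11, adjusted p = 0.158). Its groups overlapped, and it passed the test only with the replicate block (adjusted p = 0.00747). Klc3 and Klc4 did not pass.

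Kinesin-2 motors build cilia and, in neurons, carry vesicles and NMDA receptor cargo. The heterodimer is made of Kif3a with Kif3b or Kif3c, and Kifap3 links it to cargo. Kif3a was lower and its partner Kif3c higher in Pilo libraries. Kif3a (ENSMUSG00000018395, chr11:53567379-53601967, plus strand, GRCm38) had 123, 109.8, 118 and 111 CPM in Pilo libraries, against 157, 142, 166 and 144 CPM in Mock libraries (log2 fold change -0.40, SE 0.08, adjusted p = 0.00143). Kif3c, a partner of Kif3a that is enriched in neurons, had 170.1, 173, 170.4 and 161 CPM in Pilo libraries, against 144, 137, 143 and 137 CPM in Mock libraries (log2 fold change 0.26, SE 0.07, adjusted p = 0.00840). Neither gene's groups overlapped, with Kif3a lower and Kif3c higher in every Pilo library. Kif3b averaged 56.0 ± 4.91 CPM in Pilo libraries and 58.6 ± 1.31 CPM in Mock libraries (SD, n = 4 each), with a log2 change of -0.07 (SE 0.08, adjusted p = 0.549). Kifap3 averaged 173 ± 8.50 CPM in Pilo libraries and 156 ± 12.6 CPM in Mock libraries (SD, n = 4 each), with a log2 change of 0.15 (SE 0.08, adjusted p = 0.154), and was called with the block (adjusted p = 0.0213). Kif17, the homodimeric kinesin-2 that moves NMDA receptor subunits in dendrites, had 58.9, 68.9, 61.9 and 56.7 CPM in Pilo libraries and 67.5, 80.2, 70.8 and 72.4 CPM in Mock libraries (log2 fold change -0.24, SE 0.08, adjusted p = 0.0383). Its groups overlapped at 1 Pilo library, and the call was lost without Mock replicates 2, 3 or 4 and Pilo replicates 1, 3 or 4 in turn (adjusted p up to 0.122). An exon of Kif17 overlaps one of Sh2d5 on the same strand.

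Kinesin-3 motors carry synaptic vesicle precursors and dense-core vesicles along axons. The principal carriers, Kif1a and Kif1b, did not pass the test, and other members moved each way. Kif1a had 743, 963, 884 and 877 CPM in Pilo libraries and 718, 803, 701 and 787 CPM in Mock libraries (log2 fold change 0.20, SE 0.09, adjusted p = 0.111). Kif1b had 557, 504, 512 and 525 CPM in Pilo libraries and 479, 437, 469 and 484 CPM in Mock libraries (log2 fold change 0.17, SE 0.07, adjusted p = 0.103). Only the groups of Kif1b were free of overlap. With the replicate block both passed (adjusted p = 0.00580 and 0.00975), as did Kif1a without Pilo replicate 1 (0.0259) and Kif1b with DESeq2 (0.0265). Kif1c, known as a carrier of dense-core vesicles and RNA, had 109.9, 136, 123 and 129.8 CPM in Pilo libraries and 91.8, 111, 94.3 and 107 CPM in Mock libraries (log2 fold change 0.30, SE 0.09, adjusted p = 0.0198). Its groups overlapped slightly, and the call was lost without Pilo replicate 2, Pilo replicate 4 or Mock replicate 1 (adjusted p up to 0.0568). Kif16b, which moves early endosomes, was higher in every Pilo library, at 29.0, 37.3, 28.5 and 39.5 CPM, against 21.9, 21.7, 21.1 and 24.6 CPM in Mock libraries (log2 fold change 0.59, SE 0.11, adjusted p = 0.00152). Kif13b, a carrier of PIP3-bearing vesicles, was lower in every Pilo library, at 99.6, 89.6, 104 and 90.4 CPM, against 125, 128, 128 and 127 CPM in Mock libraries (log2 fold change -0.40, SE 0.07, adjusted p = 0.000900). Kif28 was barely above the count minimum, with 0.171, 0.261, 0.223 and 0.232 CPM in Pilo libraries and 0.663, 0.481, 0.533 and 0.604 CPM in Mock libraries (log2 fold change -1.35, SE 0.32, adjusted p = 0.00500). Its groups did not overlap, but all 4 Pilo libraries held under 10 counts, so that Kif28 met the count minimum through the Mock libraries alone and had to be lower in Pilo libraries. It shares exon sequence with Ahctf1 on the same strand. Kif13a, Kif14 and the kinesin-binding protein gene Kif1bp did not pass the test.

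In the kinesin-4, kinesin-11, kinesin-13 and kinesin-14 families, Kif2a, Kif21a and Kif21b, which shorten microtubules or slow their growth, and Kifc3 and Kif26a were higher in Pilo libraries. Kif2a, a kinesin-13 that removes tubulin from microtubule ends and prunes axon branches, had 107, 116, 122 and 110.4 CPM in Pilo libraries, against 87.7, 85.3, 90.9 and 79.6 CPM in Mock libraries (log2 fold change 0.40, SE 0.07, adjusted p = 0.000990). Kif21a, a kinesin-4 that restrains growth at the cell cortex, had 324, 318, 310.2 and 325 CPM in Pilo libraries, against 249.7, 266, 267 and 259 CPM in Mock libraries (log2 fold change 0.29, SE 0.07, adjusted p = 0.00481). Both were separated completely from the Mock libraries. Kif21b, its relative that pauses microtubule growth and moves in dendrites, had 263, 339, 272 and 335 CPM in Pilo libraries and 229, 248, 198 and 274 CPM in Mock libraries (log2 fold change 0.35, SE 0.11, adjusted p = 0.0307). Its groups overlapped, and its call was lost without Mock replicates 1 or 3 and Pilo replicates 2 or 4 (adjusted p up to 0.0946). Kifc3, a minus-end directed kinesin-14, had 46.2, 57.9, 59.5 and 56.1 CPM in Pilo libraries, against 36.4, 44.5, 40.3 and 45.2 CPM in Mock libraries (log2 fold change 0.40, SE 0.10, adjusted p = 0.00636). Its groups did not overlap. Kif26a, an atypical kinesin without ATPase activity, had 7.31, 11.6, 10.2 and 10.0 CPM in Pilo libraries and 4.05, 8.43, 6.10 and 5.67 CPM in Mock libraries (log2 fold change 0.69, SE 0.20, adjusted p = 0.0202). Mock replicate 2 lay within the Pilo range, and the call was lost without Pilo replicate 2 or Mock replicate 4 (adjusted p up to 0.0552). Kifc2, a neuronal kinesin-14, had 671, 886, 713 and 841 CPM in Pilo libraries and 789, 756, 572 and 889.5 CPM in Mock libraries (log2 fold change 0.05, SE 0.13, adjusted p = 0.811), with a wide spread in both groups. The remaining members Kif7, Kif27, Kif24, Kif26b and Kifc1 did not pass the test.

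Kinesins of the mitotic spindle were at low levels. Kif11 and Kif23 passed the test, both lower, beside 16.2% of all genes lower. Kif11, the bipolar motor that pushes spindle poles apart, had 1.66, 1.44, 1.21 and 1.36 CPM in Pilo libraries, against 2.82, 2.15, 2.77 and 2.55 CPM in Mock libraries (log2 fold change -0.86, SE 0.18, adjusted p = 0.00314), with no overlap. Kif23, which works in cytokinesis, averaged 5.72 ± 0.335 CPM in Pilo libraries and 7.58 ± 0.678 CPM in Mock libraries (SD, n = 4 each), with a log2 change of -0.41 (SE 0.12, adjusted p = 0.0193), and was no longer called without Mock replicates 1, 2 or 3 and Pilo replicates 2 or 4 (adjusted p up to 0.0659). The spindle motors Kif14, Kif15, Kif18a, Kif20a, Kif20b and Kif22 did not pass the test. Their log2 changes went both ways, from -0.33 for Kif14 to 0.16 for Kif20a and 0.19 for Kif22. All of them but Kif22 averaged at most 2.08 CPM in either group. Markers of cycling cells summed to 6.04 to 7.23 CPM in Pilo libraries and 8.36 to 9.71 CPM in Mock libraries, so they also lay lower without overlap, although 0 of the 4 with enough counts to test passed. None was at 0 in every library, and their part in the lower spindle motors was not tested. Kif9, a kinesin of motile cilia, averaged 13.3 ± 2.65 CPM in Pilo libraries and 18.5 ± 2.21 CPM in Mock libraries (SD, n = 4 each), with a log2 change of -0.47 (SE 0.14, adjusted p = 0.0232), and lost its call without Mock replicates 2 or 4 (adjusted p up to 0.0722). Kif6 and Kif19a, also linked to cilia, did not pass.

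In the dynein-1 complex, the motor of transport toward the cell body, the heavy chain that holds the motor domain was lower and no other large chain passed the test. Dync1h1 (ENSMUSG00000018707, chr12:110601452-110666945, plus strand, GRCm38) had 501, 445, 450.2 and 454 CPM in Pilo libraries, against 629, 595, 629.9 and 611 CPM in Mock libraries (log2 fold change -0.41, SE 0.07, adjusted p = 0.000909). Even Pilo replicate 1, well above the other Pilo libraries, lay below every Mock library. Of the intermediate chains, which bind dynactin, Dync1i2 had 428, 475, 438 and 468 CPM in Pilo libraries and 498, 555, 482 and 518 CPM in Mock libraries (log2 fold change -0.18, SE 0.08, adjusted p = 0.0864). These groups did not overlap, and Dync1i2 passed with the replicate block (adjusted p = 0.00503), with DESeq2 (0.0474), with a minimum count of 50 (0.0391), in the exonic columns of the second table (0.0434) and with introns added (0.00840). Dync1i1, the form enriched in neurons, averaged 43.6 ± 3.71 CPM in Pilo libraries and 42.1 ± 2.47 CPM in Mock libraries (SD, n = 4 each), with a log2 change of 0.05 (SE 0.08, adjusted p = 0.661). The light intermediate chains link dynein to adaptors. Dync1li1 averaged 73.8 ± 3.62 CPM in Pilo libraries and 71.9 ± 4.93 CPM in Mock libraries (SD, n = 4 each), with a log2 change of 0.04 (SE 0.07, adjusted p = 0.753). Dync1li2 averaged 405 ± 42.5 CPM in Pilo libraries and 363 ± 13.3 CPM in Mock libraries (SD, n = 4 each), with a log2 change of 0.16 (SE 0.08, adjusted p = 0.180), and was called with the block (adjusted p = 0.0228).

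Both genes of dynein-2 in the set, a motor which returns cargo from the tip of the cilium to its base, were lower in Pilo libraries. The share of all genes that were lower was 16.2%. The light intermediate chain Dync2li1 had 8.43, 7.90, 9.82 and 8.92 CPM in Pilo libraries, against 14.4, 13.4, 15.3 and 11.9 CPM in Mock libraries (log2 fold change -0.65, SE 0.11, adjusted p = 0.000793). Its groups were clearly apart. The heavy chain Dync2h1 had 60.8, 39.7, 52.6 and 44.4 CPM in Pilo libraries and 81.1, 56.8, 80.4 and 66.1 CPM in Mock libraries (log2 fold change -0.53, SE 0.14, adjusted p = 0.0160). Here the groups overlapped, and the call was lost without Mock replicate 1, Mock replicate 3 or Pilo replicate 4 (adjusted p up to 0.0591) and with no low-count filter (0.0510). The summed markers of ciliated ependymal and choroid cells were 45.1 to 122 CPM in Pilo libraries and 44.7 to 67.7 CPM in Mock libraries, overlapping. Of these 8 markers 1 was higher (Foxj1), 0 lower and 7 without a call, beside 15.6% of all genes higher.

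The dynein light chains sit at the base of the complex, and the LC8 forms Dynll1 and Dynll2 also bind many proteins outside it. Of the 9 tested, 4 were lower and none was higher, beside the 16.2% lower over all genes. Of these 4, Dynll1 is a gene apart and the others are near-identical copies of Dynlt1, which do not count as separate calls. Dynll1 (ENSMUSG00000009013, chr5:115297110-115300999, minus strand, GRCm38) had 65.1, 63.7, 64.2 and 58.7 CPM in Pilo libraries, against 81.4, 89.8, 87.4 and 81.3 CPM in Mock libraries (log2 fold change -0.43, SE 0.07, adjusted p = 0.000434). Dynll2 (ENSMUSG00000020483, chr11:87979525-87987533, minus strand, GRCm38) had 127, 127, 148 and 111 CPM in Pilo libraries and 118, 124, 136 and 115 CPM in Mock libraries (log2 fold change 0.06, SE 0.09, adjusted p = 0.683). Dynll1 was lower in every Pilo library, while the groups of Dynll2 overlapped throughout. The Tctex-type chain Dynlt1b had 11.8, 12.1, 10.7 and 11.2 CPM in Pilo libraries, against 19.2, 20.8, 21.3 and 19.3 CPM in Mock libraries (log2 fold change -0.81, SE 0.09, adjusted p = 2.62e-05). Its copy Dynlt1c had 1.86, 2.19, 1.79 and 1.49 CPM in Pilo libraries, against 4.35, 4.07, 3.99 and 3.55 CPM in Mock libraries (log2 fold change -1.12, SE 0.17, adjusted p = 0.000259). Dynlt1a averaged 21.9 ± 2.33 CPM in Pilo libraries and 28.5 ± 3.16 CPM in Mock libraries (SD, n = 4 each), with a log2 change of -0.38 (SE 0.10, adjusted p = 0.0120), and Dynlt1f did not pass. These genes are near-identical copies: 59.4% of the 50-base windows of Dynlt1a transcripts, 83.2% for Dynlt1b, 93.7% for Dynlt1c and 93.1% for Dynlt1f occur in another gene, so the split of reads between them is uncertain. Summed, the copies had 38.1, 40.6, 35.0 and 33.5 CPM in Pilo libraries, against 52.5, 58.9, 57.5 and 50.0 CPM in Mock libraries (log2 fold change -0.57, SE 0.08, adjusted p = 0.000248). The sum, chosen after the copies' values were known, was lower in every Pilo library. Dynlt3, Dynlrb1 and Dynlrb2 did not pass the test.

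Dynactin, the large complex that lets dynein walk far and grip cargo, had 1 of 6 subunits higher and 1 lower. The shares over all genes were 15.6% higher and 16.2% lower. Dctn5, of the pointed-end complex of its filament, had 57.3, 52.5, 56.4 and 51.4 CPM in Pilo libraries, against 74.0, 82.0, 75.7 and 70.6 CPM in Mock libraries (log2 fold change -0.47, SE 0.07, adjusted p = 0.000335), with no overlap. Dctn3, a subunit of the shoulder that joins the arm to the filament, averaged 34.9 ± 3.56 CPM in Pilo libraries and 29.2 ± 1.11 CPM in Mock libraries (SD, n = 4 each), with a log2 change of 0.25 (SE 0.09, adjusted p = 0.0358). Its groups did not overlap, but its call was lost without Mock replicates 1, 2 or 4 and Pilo replicate 2 (adjusted p up to 0.118), with no low-count filter (0.0624), in the exonic columns of the second table (0.0525) and with introns added (0.149). Dctn1, the p150Glued subunit that binds microtubules and dynein, had 394, 505, 416 and 467 CPM in Pilo libraries and 381, 391, 337 and 399 CPM in Mock libraries (log2 fold change 0.24, SE 0.09, adjusted p = 0.0640). Pilo replicate 1 lay within the Mock range, and Dctn1 passed with the block (adjusted p = 0.00193), with DESeq2 (0.0285), with introns added (0.0483) and without Pilo replicate 1 (0.0259) or Pilo replicate 3 (0.0416). Dctn2, or dynamitin, averaged 210.0 ± 20.3 CPM in Pilo libraries and 191 ± 13.6 CPM in Mock libraries (SD, n = 4 each), with a log2 change of 0.14 (SE 0.09, adjusted p = 0.249), and was called with the block (0.0442). Dctn4 and Dctn6 did not pass.

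Intronic reads come mostly from unspliced transcripts and were counted in the second table, in which 62 motor genes could be tested. Of these, 6 were higher, with 19.6% of all 13318 genes higher, and 13 lower, with 21.9% of all genes lower and 41.4% called in either direction. The shares of the motor genes were 9.68% and 21.0%, with the copies Dynlt1b and Dynlt1c both among the lower genes. In 18 of the 62 genes the groups did not overlap, beside 37% of all genes. Of the 11 genes higher in exons 5 were also higher in introns (Kif2a, Kif3c, Kif16b, Kif21a and Klc1), and of the 15 lower in exons 9 were also lower in introns (Dctn5, Dync2li1, Dynll1, Dynlt1b, Dynlt1c, Kif13b, Kif23, Kif3a and Kif9), with 0 in opposite directions. The intronic call of Kif3c was lost without Pilo replicates 3 or 4 or Mock replicate 3 (adjusted p up to 0.0638), that of Kif16b without Pilo replicates 3 or 4 or Mock replicates 2, 3 or 4 (up to 0.162) and with no low-count filter (0.0584), and that of Kif23 without Pilo replicate 4 or Mock replicates 1, 2 or 3 (up to 0.144). Kif2a introns had 183, 218, 184 and 178 CPM in Pilo libraries, against 146, 148, 123 and 115 CPM in Mock libraries (intronic log2 fold change 0.52, SE 0.11, adjusted p = 0.00139). Dync2li1 introns had 53.5, 59.2, 46.0 and 51.0 CPM in Pilo libraries, against 101, 97.5, 99.0 and 86.4 CPM in Mock libraries (intronic log2 fold change -0.87, SE 0.10, adjusted p = 1.67e-05). Both separated in the direction of their exons. Dynlt1b introns had 49.4, 48.3, 50.3 and 43.9 CPM in Pilo libraries, against 79.9, 81.2, 87.6 and 76.4 CPM in Mock libraries (intronic log2 fold change -0.76, SE 0.10, adjusted p = 2.82e-05), again with no overlap. Some genes without an exonic call were called in introns. Kifap3 was higher (adjusted p = 0.0459), and Dync1i2 (0.0286), Dynll2 (9.24e-05), Kif3b (0.0415) and Kif5b (0.0467) were lower. Of these calls, only that of Dynll2 was kept with each library left out in turn. With the replicate block, 17 motor genes were higher and 17 lower, while 27.7% of all genes were higher and 29.2% lower. The count of higher motor genes was 11 without Pilo replicate 1 and 3 without Pilo replicate 4. Of all genes, 2638 of 13419 and 2178 of 13421 were higher in these runs, against 2609 of 13318 with every library. Numbers 2 and 3 of the libraries are exchanged between the tables, so a number here is that of the second table, and which table carries the numbers of the titles is not known.

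The change in exons was then tested against the change in introns of the same libraries. Of 62 motor genes, 5 had an exonic change above the intronic one, with 13.5% of all 13047 genes above, and 6 had it below, with 12.8% of all genes below. The largest difference above was in Dynll2, whose exons did not pass the test. Its introns had 32.9, 32.6, 34.5 and 32.1 CPM in Pilo libraries, against 49.8, 57.3, 67.4 and 52.6 CPM in Mock libraries (intronic log2 fold change -0.78, SE 0.11, adjusted p = 9.24e-05), while its exons in that table had 135, 158, 135 and 118 CPM in Pilo libraries and 128, 147, 134 and 125 CPM in Mock libraries. Introns thus separated the groups and exons did not (exonic minus intronic log2 change 0.80, SE 0.10, adjusted p = 0.000129). The intronic share of its reads was 9.34% in Pilo libraries and 17.5% in Mock libraries. Dynll1 introns had 40.5, 30.2, 36.2 and 33.2 CPM in Pilo libraries, against 52.6, 54.7, 79.3 and 58.8 CPM in Mock libraries (intronic log2 fold change -0.81, SE 0.14, adjusted p = 0.000353), and fell further than its exons (exonic minus intronic log2 change 0.37, SE 0.12, adjusted p = 0.0356). That last call was lost without Mock replicates 3 or 4 and Pilo replicates 2, 3 or 4 (adjusted p up to 0.139).

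Dync1h1 showed the opposite arrangement. Its introns had 187, 173, 206 and 213 CPM in Pilo libraries and 185, 169.5, 195 and 222 CPM in Mock libraries (intronic log2 fold change 0.02, SE 0.10, adjusted p = 0.921), interleaved, while its exons were lower in every Pilo library (exonic minus intronic log2 change -0.46, SE 0.10, adjusted p = 0.00524). Kif17 introns had 530.5, 604, 622 and 552 CPM in Pilo libraries and 426, 477, 593 and 497 CPM in Mock libraries (intronic log2 fold change 0.21, SE 0.11, adjusted p = 0.127). They were called with the replicate block (adjusted p = 0.00404) and without Mock replicate 3 (0.0311). Its exons were lower in this table too, where 25 of 63 motor genes and 34% of all genes were called in exons (log2 fold change -0.27, adjusted p = 0.0217), and the difference passed (exonic minus intronic log2 change -0.48, SE 0.07, adjusted p = 0.000234). Introns took 78.8% of Kif17 reads in Pilo libraries and 75.9% in Mock libraries, and the sum of exons and introns did not pass, at a log2 fold change of 0.02 (adjusted p = 0.911). Dync2h1 also had exons below introns (exonic minus intronic log2 change -0.36, SE 0.08, adjusted p = 0.00673), and so did Kif28. For Kif28 this is a description, since the count minimum fixed the direction of its exonic change. Its introns had 25.9, 31.3, 22.5 and 21.3 CPM in Pilo libraries and 19.1, 19.7, 23.8 and 19.2 CPM in Mock libraries, and the groups overlapped. Smaller differences passed in Kif5c (exonic minus intronic log2 change 0.23, SE 0.06, adjusted p = 0.0177), Kif5a (exonic minus intronic log2 change 0.27, SE 0.08, adjusted p = 0.0192), Dynlrb1 (exonic minus intronic log2 change 0.30, SE 0.09, adjusted p = 0.0247), Dynlt1a (exonic minus intronic log2 change -0.32, SE 0.09, adjusted p = 0.0152) and Klc1 (exonic minus intronic log2 change -0.21, SE 0.07, adjusted p = 0.0313). Each of these was lost with some library left out. Kif5c was lost without Pilo replicates 2 or 3 or Mock replicate 1 (adjusted p up to 0.0787), and Kif5a without Pilo replicates 1 or 2 (up to 0.0926). Dynlrb1 was lost without Pilo replicates 2 or 4 or Mock replicates 1, 2 or 3 (up to 0.108), Dynlt1a without Pilo replicate 4 (0.0516), and Klc1 without Pilo replicates 3 or 4 or Mock replicates 1, 2 or 4 (up to 0.0960). With the replicate block 9 motor genes lay above and 9 below, while 20.5% of all genes lay above and 18.7% below. The count above was 3 without Mock replicate 1, Pilo replicate 3 or Pilo replicate 4, and 1 without Pilo replicate 2. Of all genes, 1329 of 13165, 1317 of 13174, 1395 of 13142 and 1249 of 13142 lay above in these runs. With every library the count over all genes was 1756 of 13047.

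**Figure D3:**
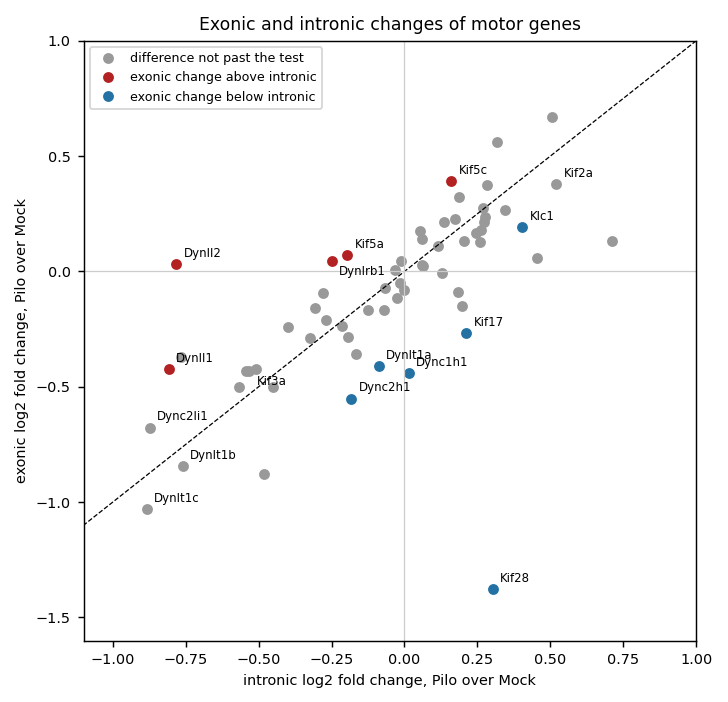
Log2 fold change of Pilo over Mock in introns (x axis) and exons (y axis) of the second table for the 62 motor genes tested in both. The dashed line marks equal change, and coloured genes differ between regions. Most genes lie near the line. Dynll2 lies far to the left at about 0 in exons, and Dync1h1 and Kif17 below the line with Kif28, whose direction in exons the count minimum fixed.

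**Figure D4:**
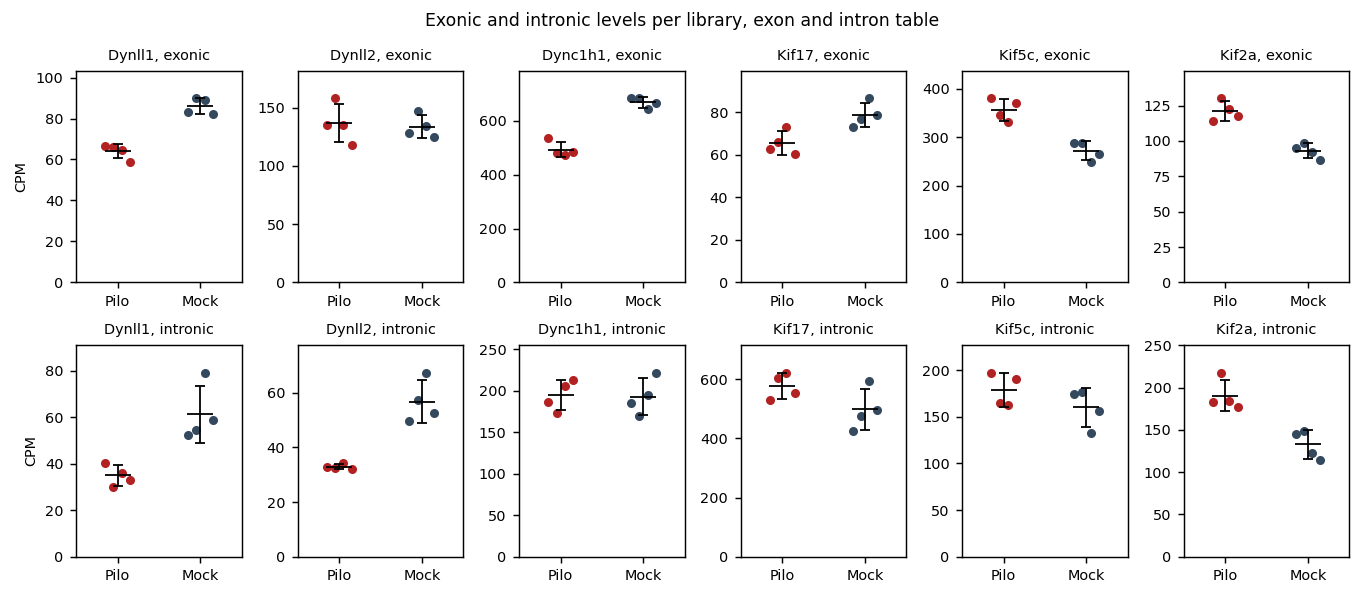
CPM of each library (points) with mean and SD (bars, n = 4 per group) for 6 motor genes, exons above and introns below, in the second table. The groups of Dynll2 are apart in introns, those of Dync1h1 in exons, and those of Kif2a in both.

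Levels of different genes were compared per kilobase of exon. Kifc2 stood highest, at 198 CPM per kb in Pilo libraries and 191 in Mock libraries, and its exons overlap those of Cyhr1 on the other strand. Klc1 followed at 110 CPM per kb in Pilo and 94.3 in Mock libraries, and Kif1a at 92.9 in Pilo and 80.6 in Mock libraries. The median over the 64 genes was 11.5 CPM per kb in Pilo and 11.3 in Mock libraries. Exons of 20 motor genes overlap an exon on the other strand and those of 4 an exon on the same strand, and 9 of the 26 genes past the test are among them. They include, on the other strand, Dync1h1, Dynlt1a, Kif2a (with Dimt1), Kif3c and Klc1 (with Xrcc3), and on the same strand Kif17, Kif28 and Kif1c (with Mir6925).

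Per length, the shares of close relatives in the summed exonic RNA of their set differed between the groups in some sets. These are shares of nuclear RNA, and no protein or complex was measured. Among the kinesin-2 motor subunits, Kif3c made up 29.1% ± 0.53 in Pilo libraries and 21.6% ± 0.42 in Mock libraries, and Kif3a 41.1% ± 1.55 in Pilo and 48.4% ± 2.06 in Mock libraries (SD, n = 4 each). Among the LC8 chains, Dynll1 made up 25.8% ± 1.64 in Pilo libraries and 32.7% ± 1.09 in Mock libraries. Among the kinesin-1 heavy chains, Kif5c made up 41.2% ± 3.82 in Pilo libraries, with a range of 36.8% to 45.4%, and 35.1% ± 1.77 in Mock libraries, with a range of 33.0% to 36.6%. Kif5b made up 10.8% ± 1.09 in Pilo libraries (9.91% to 11.9%) and 13.6% ± 0.69 in Mock libraries (12.9% to 14.3%). These ranges of Kif5b did not overlap, although its own change did not pass the test. These shares are descriptions of changes already tested above.

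**Figure D5:**
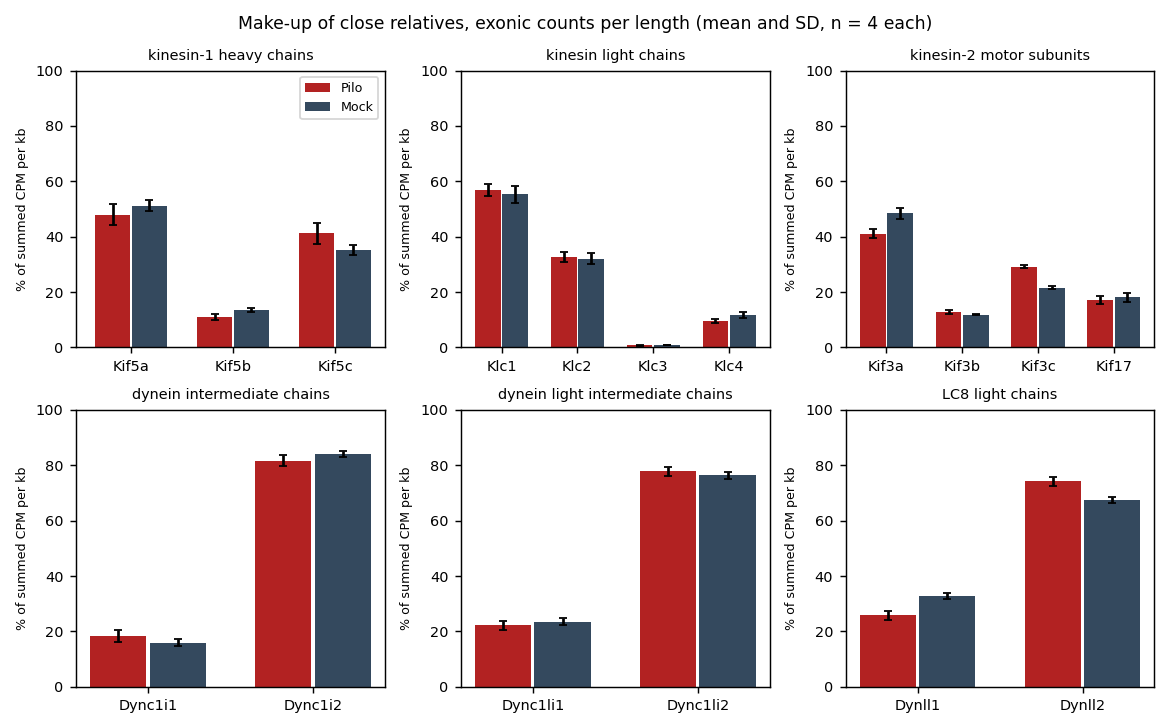
Share of each gene in the summed exonic CPM per kb of its set (y axis, percent) in Pilo (red) and Mock (dark) libraries, mean and SD over 4 libraries each. Kif3c takes a larger share and Kif3a a smaller one in Pilo libraries, and the same holds for Dynll2 and Dynll1.

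Genes that work with the motors were counted beside them, and the shares to read these counts against are the 15.6% higher and 16.2% lower over all genes. Of 48 adaptors and regulators tested, 16 were higher and 2 lower, with a median log2 fold change of 0.15 (1 of them, Kif1bp, is also among the motor genes). Trak1, which joins kinesin-1 to mitochondria, averaged 337 ± 56.2 CPM in Pilo libraries and 141 ± 8.94 CPM in Mock libraries (SD, n = 4 each), with a log2 change of 1.26 (SE 0.11, adjusted p = 6.05e-06). Bicd2, which joins dynein and dynactin to vesicles and nuclei, averaged 72.4 ± 11.9 CPM in Pilo libraries and 162 ± 21.3 CPM in Mock libraries (SD, n = 4 each), with a log2 change of -1.16 (SE 0.12, adjusted p = 2.19e-05). Sybu, or syntabulin, a kinesin-1 adaptor, averaged 119 ± 3.93 CPM in Pilo libraries and 78.8 ± 2.44 CPM in Mock libraries (SD, n = 4 each), with a log2 change of 0.60 (SE 0.07, adjusted p = 2.83e-05). Of 40 microtubule-associated proteins 9 were higher and 4 lower (median 0.08), and the higher Mapre1, or EB1, which tracks growing microtubule ends, averaged 71.4 ± 0.931 CPM in Pilo libraries and 40.7 ± 3.49 CPM in Mock libraries (SD, n = 4 each), with a log2 change of 0.81 (SE 0.07, adjusted p = 8.13e-06). Of 16 tubulins 6 were higher and 4 lower (median 0.23). The lower tubulins were the gamma, delta and epsilon forms Tubg1, Tubg2, Tubd1 and Tube1.

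Of 23 intraflagellar transport genes, the cargo trains moved by kinesin-2 and dynein-2, 0 were higher, 7 lower and 16 without a call (median log2 fold change -0.11). Among them Ift20, which also works at the Golgi, averaged 56.0 ± 2.85 CPM in Pilo libraries and 78.5 ± 4.61 CPM in Mock libraries (SD, n = 4 each), with a log2 change of -0.49 (SE 0.07, adjusted p = 0.000238), and Ift52 averaged 18.9 ± 1.07 CPM in Pilo libraries and 26.4 ± 2.79 CPM in Mock libraries (SD, n = 4 each), with a log2 change of -0.48 (SE 0.09, adjusted p = 0.00172). Of 20 axonemal dynein genes, the motors of beating cilia, 0 were higher, 3 lower and 17 without a call (median -0.04), near the share lower over all genes. Of 24 actin-based myosin motors 8 were higher, 1 lower and 15 without a call (median 0.16), and Myh9, the heavy chain of a nonmuscle myosin II, averaged 334 ± 50.7 CPM in Pilo libraries and 159 ± 14.8 CPM in Mock libraries (SD, n = 4 each), with a log2 change of 1.07 (SE 0.11, adjusted p = 1.86e-05).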

How the data were processed

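The authors deposited unnormalized counts of reads in genes. The first table gives exonic counts of 55471 Ensembl IDs (55144 with a symbol, and the other 327 with 0.165% of counts), and a second gives counts in exons and in introns of 18513 Entrez IDs (18507 with a symbol). The submitters' processing notes name mm10, R 4.1.1, edgeR, HTSeq 0.11.2, STAR 2.7.1a and Trimmomatic 0.39; the sources used here do not state their roles, the annotation, the strand setting of the counting or how intronic reads were told from exonic ones. Where strand was not used, reads of overlapping genes on opposite strands cannot be told apart.

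The motor genes and the gene lists were chosen with earlier results of these data known. Of the 64 genes, 63 were found in the second table, Kif1bp by a newer symbol. Dynlt1f was not found, and Dynlt3 had 0 intronic counts. Coordinates and lengths (the union of a gene's exons) are from GENCODE vM21, promoters from RefSeq.

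Counts were tested with edgeR 4.0.16 (limma 3.58.1, R 4.3.3): quasi-likelihood F-test (robust, two-sided), TMM, low counts removed by filterByExpr (minimum 10), Benjamini-Hochberg adjustment over all genes and a threshold of 0.05. The SE is the fitted log2 change divided by the square root of F. The difference between regions is the region-by-treatment term of a model that also holds each sample. Values per library were to be given for the 8 higher and 8 lower genes of smallest p with a mean count of 50 or more and for a fixed set of principal motor genes; some others were added after their values were seen. Columns of the tables were matched by their deviations from group means (r of 0.993 to 0.996 over 14014 genes), and the numbers 2 and 3 of both groups were found to be exchanged; which table carries the numbers of the titles is not known, and a replicate number is that of the table its value comes from.

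Same-numbered Pilo and Mock libraries deviated together (r 0.372, 0.380, 0.401 and 0.377), over the limit of 0.1 for taking the numbers in the titles as pairs. The main test still held treatment alone, and the replicate block is an alternative. Genes past the test with the block but not in the main test are counted above as not past it. Within a group, no pair of libraries was as alike as counting error alone would make it (chi-square divided by its degrees of freedom 10.2 to 34.2). In simulated data with 200 changed genes, 53.7%, 89.6% and 98.5% of changes of 1.5-fold, 2-fold and 4-fold were recovered in exonic counts (19176 genes), 58.2%, 95.5% and 97.0% in intronic counts (13318 genes), and 20.9%, 76.1% and 100% in the difference between regions (13047 genes). The simulation gave every gene a dispersion (spread beyond counting error) of 0.02. In the real exonic counts 31.8% of genes were called, and the spread was fitted gene by gene. The recovered shares may therefore not hold for the real data. Alternatives were DESeq2 1.42.0, limma-voom, size factors of DESeq2's kind, other count minima, the second table's exonic columns, exonic plus intronic counts, each library left out, and the Dynlt1 copies summed.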

Additional observations from a re-analysis of the deposited data

Results flagged for a closer look

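In 13 of 252 sets of 4 libraries (a motor gene's CPM in exons or introns in 1 group), 1 library stood far from the other 3. Chance gives about 1 in 20 such sets, and 5.16% were found. Replicate numbers 2 and 3 of introns are those of the second table, where they are exchanged relative to exons. In exons of Pilo libraries, Dync1h1 stood at 501 CPM in Pilo replicate 1 (others 445 to 454), Dctn4 at 94.9 in Pilo replicate 1 (77.9 to 79.4) and Kifc1 at 5.30 in Pilo replicate 4 (3.91 to 4.05). In exons of Mock libraries, Dync1li2 stood at 383 CPM in Mock replicate 2 (355 to 358) and Kif1bp at 57.3 in Mock replicate 4 (59.4 to 59.8). In introns of Pilo libraries, Kif2a stood at 218 CPM in Pilo replicate 2 (178 to 184), Kif21a at 373 in Pilo replicate 4 (395 to 397) and Klc3 at 3.22 in Pilo replicate 1 (5.62 to 6.09). In introns of Mock libraries, Kif14 stood at 0.928 CPM in Mock replicate 1 (1.39 to 1.45), Kifc3 at 45.4 in Mock replicate 1 (56.3 to 57.4), Kif28 at 23.8 in Mock replicate 3 (19.1 to 19.7), Kif3c at 115 in Mock replicate 3 (126 to 128) and Kifc1 at 6.75 in Mock replicate 3 (4.26 to 4.50).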

How the results depend on the processing

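With size factors of DESeq2's kind, no low-count filter, a minimum count of 50, limma-voom, DESeq2, the second table's exonic columns, exonic plus intronic counts or the Dynlt1 copies summed (added after seeing the data), the exonic counts of calls stayed within 1.5 times those reported. With the replicate block, 18 motor genes were higher in exons and 17 in introns, 9 had exonic changes above intronic ones, and no call was lost. It added 8 exonic, 15 intronic and 7 region calls. Without each library in turn, 6 to 13 motor genes were higher and 12 to 14 lower in exons, 3 to 11 higher and 9 to 14 lower in introns, and 1 to 4 had exonic changes above and 4 to 6 below intronic ones. The calls over all genes varied too. In exons 2487 to 3113 genes were higher and 2356 to 3166 lower (19481 to 19583 tested). In introns 2178 to 2638 were higher and 2338 to 2955 lower (13397 to 13449 tested). Exonic changes lay above intronic ones in 1249 to 1744 and below in 1251 to 1670 (13139 to 13174 tested). Under every alternative run for a comparison, 16 of 26 exonic, 12 of 19 intronic and 5 of 11 region calls were kept. The 5 region calls include Kif28, whose direction in exons the count minimum fixed, so that its being kept is only a description. With exonic plus intronic counts, Kif17 turned to 0.0163 (adjusted p = 0.911) and Kif28 to 0.104 (0.570), since the sum takes in introns, which did not fall in these genes. With 4 libraries a group, 53.7% of 1.5-fold changes were recovered in simulated exonic counts with 200 changed genes and 1 fixed dispersion. That share may not hold for the real data. Kif28 and Dynlrb2 are the shallowest genes tested.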
